A study of Rattus norvegicus with 36 samples.

Results

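The miR-29 family was examined through 5 rows of a rat small RNA table of 861 miRNA names, of which 706 were annotated and 155 predicted. The rows were chosen by name: rno-miR-29a-3p, rno-miR-29b-3p and rno-miR-29c-3p, which are the mature 3p strands, rno-miR-29c-5p, the other strand of the miR-29c hairpin, and rno-miR-3556b. All 5 names had a value in the table and a sequence in RefSeq. Another 4 rows of the table carry a miR-29 or miR-3556 name (miR-29a-5p, miR-29b-1-5p, miR-29b-5p and miR-3556a) and are described where they bear on the listed names.

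A mature miRNA guides a silencing complex to messenger RNAs that pair with its seed, the bases near its 5′ end, and the paired messages are repressed. The miR-29 3p strands are known for targeting collagens, elastin and other extracellular matrix genes, and the DNA methyltransferases DNMT3A and DNMT3B. In the mouse brain they rise as neurons mature, where they repress pro-apoptotic BH3-only genes, and rodent studies also place them in astrocytes.

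Adult male Sprague-Dawley rats gave the libraries, which cover 2 brain regions, the prefrontal cortex (PFC) and the nucleus accumbens (NAc, in the ventral striatum), and serum from trunk blood. All animals arrived at 8 weeks of age, acclimatised for 1 week, underwent jugular catheterisation and had 1 week of recovery, so surgery was common to both treatments. One treatment group self-administered heroin at 0.075 mg/kg per infusion for 6 hours a day in 10 daily sessions, the other took saline in its place, and all were killed no later than 60 min after session 10. Brain RNA was total RNA from Trizol, serum RNA was extracted as exosomal RNA with the SeraMir kit, and libraries were selected for inserts between 18 and 40 bp, with 6 libraries in each of the 6 groups of tissue and treatment and 36 in all. Within a tissue, numbers 1 to 6 mark heroin and 7 to 12 mark saline. The labels call them biological replicates, and p-values measure the spread between these libraries.

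The 3 mature 3p strands have the same seed, printed in capitals as bases 2 to 8, and the differences between them lie outside it. They are shown because the near-identity of the strands sets which rows of the table can be told apart. The sequences are those of RefSeq on the build GRCr8, 5′ to 3′.
rno-miR-29a-3p: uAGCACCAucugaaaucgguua
rno-miR-29b-3p: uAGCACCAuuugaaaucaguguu
rno-miR-29c-3p: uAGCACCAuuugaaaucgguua
rno-miR-29c-5p: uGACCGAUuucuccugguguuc
rno-miR-3556b: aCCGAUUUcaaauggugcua
Counted from 1 at the 5′ end, miR-29a-3p and miR-29c-3p differ at 1 of 22 bases (C10U). Between miR-29a-3p and miR-29b-3p 4 of 22 bases differ (C10U, G18A, U21G and A22U), and between miR-29b-3p and miR-29c-3p 3 of 22 (A18G, G21U and U22A). Of the 642 annotated names of the table that have a RefSeq sequence, only these 3 carry the seed AGCACCA. The seeds of miR-29c-5p (GACCGAU) and miR-3556b (CCGAUUU) differ from it and from each other.

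The family comes from 2 clusters of hairpins in GRCr8. On chromosome 4, minus strand, Mir29a (chr4:60617955-60618042) and Mir29b1 (chr4:60618334-60618414) lie 291 bases apart. On chromosome 13, plus strand, Mir29b2 (chr13:109098831-109098911) and Mir29c (chr13:109099359-109099446) lie 447 bases apart. The mature miR-29b-3p has the same letters in Mir29b1 and Mir29b2, so its row cannot be assigned to a cluster. The mature miR-29a-3p lies at chr4:60617968-60617989, miR-29c-3p at chr13:109099412-109099433 and miR-29c-5p at chr13:109099374-109099395.

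The row of miR-3556b repeated that of miR-29c-3p. Its sequence lies at chr13:109099412-109099431 on the minus strand, opposite miR-29c-3p, and is the reverse complement of bases 1 to 20 of that strand. Its counts came to 98.4% to 100% of those of miR-29c-3p in the 12 PFC libraries, to 98.4% to 100.3% in the 12 NAc libraries, and were identical in the 12 serum libraries. The summed counts were 5055 against 5072 in the PFC, 3844 against 3870 in the NAc and 83 against 83 in serum. The 2 rows therefore give 1 measurement, and the number of listed names that passed a test counts that measurement 2 times wherever both are in it.

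The same relation held for miR-29b-3p and miR-3587, which is not a listed name.
rno-miR-3587: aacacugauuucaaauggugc
This sequence is the reverse complement of bases 3 to 23 of miR-29b-3p, and its summed counts were 20607 against 20623 in the PFC, 26957 against 26975 in the NAc and 176 against 176 in serum. The third 3p strand was different.
rno-miR-3556a: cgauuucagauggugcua
The sequence of miR-3556a is the reverse complement of bases 1 to 18 of miR-29a-3p, but its counts were 6.42% to 11.9% of those of miR-29a-3p in the PFC (median 8.26%), 5.99% to 11.7% in the NAc (median 9.19%) and 10.6% to 31.5% in serum (median 21.4%). Over the whole table, 31 pairs of names came within 5% of each other's counts, among names with 500 or more in sum. In 29 of those pairs 1 sequence held the reverse complement of the other over at least 15 bases, in 1 pair both lay on the same strand, and in 1 pair not both names had a sequence. The rule for the strand of a read and for a read that matches several names is not given in the sources used here. Levels of miR-29a-3p and miR-29c-3p, 1 base apart, could share reads if mismatches were allowed, and that rule is not given either.

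Depth set the precision. Total counts in units of 1e+06 ran from 3.42 to 20.8 in the PFC (median 10.42), from 5.89 to 24.8 in the NAc (median 12.31) and from 0.157 to 2.78 in serum (median 0.456). Levels are given as CPM, the count divided by the library total of the table and multiplied by 1e+06, with no length term. In the shallowest serum library 1 count was 6.35 CPM, against 0.292 CPM in the shallowest PFC library. PFC saline library 8 stood apart: its mean correlation with the other PFC libraries over log2(CPM + 1) was 0.881, that of PFC saline library 12 was 0.905, and those of the other 10 were 0.955 to 0.969. Values without library 8 are given beside the results it moves most.

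miR-29a-3p was the leading strand of the family in every library. It ranked 35th of 706 annotated names by mean level in the PFC, 40th in the NAc and 53rd in serum. In the PFC its level ran from 1714 to 3534 CPM with heroin (median 2816) and from 1725 to 7812 CPM with saline (median 3130). In the NAc it ran from 1481 to 3503 CPM with heroin (median 2438) and from 2196 to 3787 CPM with saline (median 3353). In serum it ran from 1939 to 3678 CPM with heroin (median 3295) and from 1182 to 3058 CPM with saline (median 1956). The ranges of all 6 groups overlapped, and the single level above 4007 CPM was that of PFC saline library 8.

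miR-29b-3p, the strand that can come from both clusters, was the second in level in nearly every library. It ranked 148th in the PFC, 149th in the NAc and 232nd in serum. In the PFC it ran from 101.6 to 172.3 CPM with heroin (median 129.2) and from 113.7 to 486.0 CPM with saline (median 159.9). In the NAc it ran from 117.6 to 423.6 CPM with heroin (median 146.8) and from 126.9 to 308.9 CPM with saline (median 163.8). In serum it ran from 12.3 to 32.1 CPM with heroin (median 27.6) and from 12.7 to 28.1 CPM with saline (median 16.8). No serum library reached the lowest brain library, and the serum levels rested on 116 counts in all with heroin and 60 with saline.

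Both strands of the miR-29c hairpin were lower than miR-29a-3p and, in nearly every library, than miR-29b-3p. In the PFC miR-29c-3p ran from 14.6 to 40.65 CPM with heroin (median 18.7) and from 10.9 to 341.2 CPM with saline (median 26.9). In the NAc it ran from 10.3 to 34.8 CPM with heroin (median 20.8) and from 14.4 to 46.5 CPM with saline (median 30.7). In serum it had 53 counts over the 6 heroin libraries, with no count in library 2, which allows up to 14.5 CPM there, and 30 counts over the 6 saline libraries. Brain and serum ranges overlapped for this strand. miR-29c-5p, its partner, ran from 27.1 to 88.6 CPM with heroin in the PFC (median 59.5) and from 25.8 to 518.0 CPM with saline (median 55.4). In the NAc it ran from 27.1 to 96.9 CPM with heroin (median 77.3) and from 36.8 to 181.2 CPM with saline (median 44.4). In serum its mean was 8.50 CPM ± 3.05 with heroin (SD, n = 6; 39 counts in all) and 9.17 CPM ± 5.04 with saline (26 counts in all), below every brain library.

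**Figure D1:**
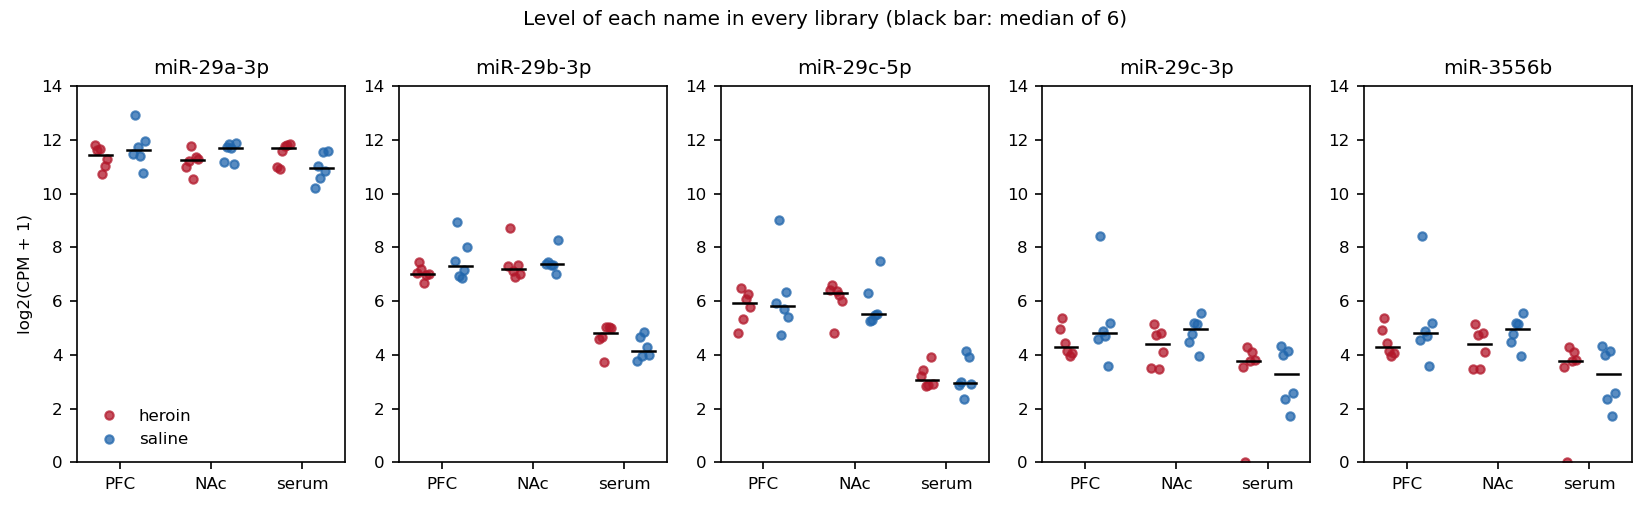
Level of each listed name in all 36 libraries as log2(CPM + 1), by tissue and treatment, with a black bar at the median of the 6 libraries of a group. miR-29a-3p is highest throughout, miR-29b-3p and miR-29c-5p lie lower in serum than in either brain region, and 1 saline library stands above the rest of the PFC in every panel.

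The order of the levels within a library was nearly fixed at the top and not at the bottom. miR-29a-3p exceeded miR-29b-3p in 36 of 36 libraries, and miR-29b-3p exceeded miR-29c-5p in 35 of 36. The 2 strands of miR-29c were not ordered across tissues: the 5p strand was above the 3p strand in 10 of 12 PFC, 12 of 12 NAc and 3 of 12 serum libraries. In serum saline libraries 9 and 10 the 2 strands had equal counts, and most serum counts of both strands were single digits. These are read levels, and sequence-dependent ligation and amplification were not measured, so the order between strands is that of reads. Of the summed counts of miR-29a-3p, miR-29b-3p and miR-29c-3p, miR-29a-3p took 93.8% ± 1.58 in the PFC (SD, n = 12), 92.8% ± 3.12 in the NAc and 98.6% ± 0.495 in serum. The share of miR-29b-3p was 5.11% ± 1.18, 6.40% ± 3.0 and 0.909% ± 0.250 in the same order, and that of miR-29c-3p was 1.05% ± 0.930, 0.821% ± 0.231 and 0.472% ± 0.405.

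The first comparison asked whether heroin changed the family in each tissue. No listed name passed the test in any tissue. In the PFC all 5 names were lower with heroin on average, in the NAc 3 were lower and 2 higher, and in serum the 2 names with enough counts were higher, in each case within the spread between libraries. The test was edgeR's quasi-likelihood test with TMM scaling on all names that passed the low-count filter, adjusted by the Benjamini-Hochberg method over all of them, and log2 fold changes (log2FC) are given with their standard error.

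In the PFC 0 of 5 names were called, as were 0 of all 455 names tested (0%). At an unadjusted p under 0.05 edgeR listed 16 names (3.52%), DESeq2 also 16 and limma 2, and neither DESeq2 nor limma called any. DESeq2 gave no adjusted p for miR-29c-3p and miR-3556b here, so its lack of calls does not cover them. miR-29a-3p had a log2FC of -0.29 ± 0.26 and miR-29b-3p of -0.49 ± 0.28. miR-29c-5p had a log2FC of -0.78 ± 0.56 and miR-29c-3p of -1.39 ± 0.61, with an unadjusted p of 0.0368 for the last. The edgeR adjusted p was 0.995 for each of the 5, and the median log2FC of the 5 was -0.78 against -0.05 over all names tested. Library 8 carried most of that difference: without it, log2FC was -0.06 for miR-29a-3p, -0.22 for miR-29b-3p, -0.07 for miR-29c-3p and 0.19 for miR-29c-5p.

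In the NAc 0 of 5 names were called, again with 0 of 480 names overall (0%). edgeR listed 30 names (6.25%) at an unadjusted p under 0.05, DESeq2 33 and limma 35, and DESeq2 and limma made 0 calls. Log2FC was -0.21 ± 0.18 for miR-29a-3p (edgeR adjusted p = 0.690) and -0.40 ± 0.30 for miR-29c-3p (0.686), and 5 of 6 heroin libraries lay under the saline median for each of them. For miR-29b-3p it was 0.16 ± 0.30 (0.893), although 5 of 6 heroin libraries were below the saline median, since heroin library 2 had the highest level of all NAc libraries. Without that library the log2FC was -0.16. For miR-29c-5p it was 0.17 ± 0.42 (0.922), with 5 of 6 heroin libraries above the saline median and the highest level in saline library 12.

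In serum only miR-29a-3p and miR-29b-3p passed the low-count filter. Neither was called, nor was any of 229 names (0%). edgeR listed 11 names (4.80%) at an unadjusted p under 0.05, and DESeq2 called 4 names, none of them listed members. Both strands had 5 of 6 heroin libraries above the saline median, with a log2FC of 0.32 ± 0.27 for miR-29a-3p and 0.34 ± 0.34 for miR-29b-3p (edgeR adjusted p = 0.859 for each). miR-29c-3p, miR-29c-5p and miR-3556b were too thinly counted to test there. No difference in them was detectable at this depth.

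**Figure D2:**
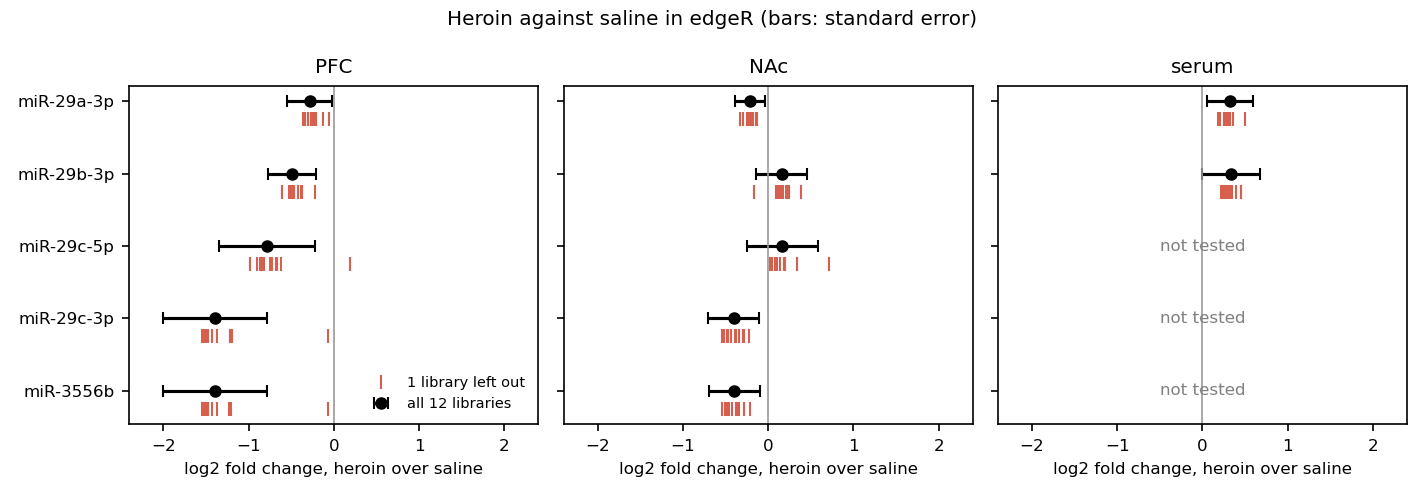
Log2 fold change of heroin over saline in edgeR for each listed name and tissue, with bars for 1 standard error, and red ticks for the value with each library left out in turn. In the PFC 1 tick lies near 0 for both miR-29c strands and miR-3556b, against full values of -1.39, -0.78 and -1.40, and it is the one without saline library 8.

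Whether the heroin difference itself varied between tissues was tested as an interaction, again with 0 of 5 listed names called in each of the 3 pairs of tissues. Between NAc and PFC 0 of 506 names were called (0%) and 19 (3.75%) had an unadjusted p under 0.05. Between serum and PFC 0 of 462 were called (0%) and 25 (5.41%) had such a p, and between serum and NAc 0 of 489 (0%) and 39 (7.98%). DESeq2 called 0, 2 and 1 names in these, none of them listed. The listed name with the smallest p was miR-29a-3p between serum and NAc, with a difference in log2FC of 0.69 ± 0.35 (edgeR adjusted p = 0.620). For miR-29c-3p the difference between serum and PFC was 1.65 ± 0.87 (edgeR adjusted p = 0.866), and between NAc and PFC it was 1.03 ± 0.72 (0.816). Without PFC library 8 these differences were 0.32 and -0.25. Within serum, miR-29c-3p, miR-29c-5p and miR-3556b did not pass the low-count filter. For miR-29c-3p the serum side rested on 53 counts with heroin and 30 with saline. The lack of a call in the serum interactions therefore says little about these names.

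The second question was how the levels differed between tissues, taken within each treatment so that no library enters both sets. PFC and NAc were dissected from each animal, but the labels do not say whether libraries with the same number come from the same rat, so the tissues were compared without pairing. The brain regions did not differ beyond the spread between libraries for any listed name. Serum differed from both. With TMM scaling miR-29b-3p and miR-29c-5p were lower by about 3 log2 units or more and miR-29c-3p lower by less. Under other settings the smallest differences were in heroin rats against the PFC. They were -2.33 for miR-29b-3p with library size alone and -2.59 for miR-29c-5p with limma. In bulk tissue and serum, fewer cells of a type and less RNA per cell cannot be told apart, and here the RNA also came from different extractions. The tissue and the kit cannot be told apart.

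Between NAc and PFC 0 of 5 listed names were called in saline rats, where 33 of 467 names (7.07%) were, and 0 of 5 in heroin rats, where 8 of 464 (1.72%) were. That 8 was 34 with DESeq2, 14 with limma, 53 with the replicate number as a block, 37 without NAc library 2 and 24 without PFC library 5, and the 33 was 58 with DESeq2 and 51 without PFC library 12. The number of listed names called was 0 in each of these. Over all names, 17 calls (3.64%) were higher in the NAc and 16 (3.43%) lower in saline rats, against 17 and 9 with library size alone as the scale, and in heroin rats 3 (0.647%) were higher and 5 (1.08%) lower, against 4 and 4. In heroin rats miR-29b-3p was higher in the NAc by 0.48 ± 0.27 (edgeR adjusted p = 0.354) and miR-29c-5p by 0.29 ± 0.35 (0.688), while miR-29a-3p (-0.15 ± 0.18) and miR-29c-3p (-0.15 ± 0.29) were near 0. In saline rats miR-29c-3p was at -1.15 ± 0.61 (edgeR adjusted p = 0.245) and miR-29c-5p at -0.69 ± 0.61 (0.497). Both turned without PFC library 8, to 0.10 and 0.23. DESeq2 called 0 of the listed names too, though in saline rats it gave no adjusted p for miR-29c-3p and miR-3556b. At an unadjusted p under 0.05 edgeR listed 113 names (24.2%) in saline and 97 (20.9%) in heroin rats, none of them a listed member.

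miR-29b-3p was lower in serum than in brain in both treatments, with no overlap of libraries. The share of all names whose libraries separated in this way was not counted. Against the PFC log2FC was -3.56 ± 0.45 in saline rats (edgeR adjusted p = 3.84e-07) and -2.91 ± 0.33 in heroin rats (6.38e-08). Against the NAc it was -3.60 ± 0.33 (3.75e-08) and -3.91 ± 0.36 (4.35e-09). Every other scaling, filter, tool and library left out kept this call, with log2FC between -4.37 and -2.33.

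miR-29c-5p behaved in the same direction with like sizes, and its serum and brain libraries did not overlap either. Against the PFC log2FC was -3.81 ± 0.68 in saline (edgeR adjusted p = 2.88e-05) and -3.28 ± 0.42 in heroin rats (3.71e-07). Against the NAc it was -3.37 ± 0.54 (1.83e-05) and -4.10 ± 0.39 (7.30e-09). Its serum levels come from 65 counts over 12 libraries, so the size of the fold is loosely set. Within serum it did not pass the low-count filter. It entered these comparisons through its brain libraries alone, so the calls are not independent of its high level there.

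miR-29c-3p, from the other arm of that hairpin, was called lower in serum in all 4 comparisons by edgeR with TMM, though its libraries overlapped. With 83 counts over 12 serum libraries it did not pass the low-count filter within serum. It too entered these comparisons through its brain libraries alone. Log2FC was -2.80 ± 0.73 against the PFC in saline rats (edgeR adjusted p = 0.00133), where it was -1.56 without PFC library 8 (0.00586), and -1.45 ± 0.39 in heroin rats (0.00181). Against the NAc it was -1.94 ± 0.44 (0.000557) and -1.88 ± 0.42 (0.000354). With library size alone as the scale, the heroin rats' difference from the NAc was -0.79 and did not pass (0.116). With limma on log2(TPM + 1) neither difference of heroin rats passed, at -1.24 against the PFC (limma adjusted p = 0.0726) and -1.05 against the NAc (0.136).

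For miR-29a-3p the difference depended on the scale. With TMM it was lower in serum than in the NAc, at -0.86 ± 0.30 in saline (edgeR adjusted p = 0.0130) and -0.91 ± 0.23 in heroin rats (0.00125), and it did not pass against the PFC, at -0.84 ± 0.39 (0.0521) and -0.55 ± 0.26 (0.0516). With library size alone it was 0.29 against the NAc (0.309) and 0.14 against the PFC (0.62) in heroin rats, and -0.56 against the NAc in saline rats (0.0856). With DESeq2 size factors in edgeR it was lower against the PFC, at -1.603 in saline (0.00175) and -1.05 in heroin rats (0.000135). Against the PFC, the adjusted p of miR-29a-3p with 1 library left out ran from 0.000525 to 0.112 in saline and from 0.00110 to 0.119 in heroin rats. It passed without saline PFC library 12 or serum library 7, 8, 9, 10 or 12, and without heroin PFC library 2, 4 or 5 or serum library 1 or 6. Leaving out NAc heroin library 2, 5 or 6 ended the call against the NAc in heroin rats, with log2FC of -0.27, -0.27 and -0.29.

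The listed names are read against a background in which nearly everything differed between serum and brain. In serum against PFC 348 of 407 names (85.5%) were called in saline rats, 211 (51.8%) of them lower in serum, beside 4 of 5 listed names, all lower. In heroin rats 367 of 411 (89.3%) were called, 224 (54.5%) lower, again beside 4 of 5. In serum against NAc 384 of 424 (90.6%) were called in saline rats, 241 (56.8%) lower, beside 5 of 5, and 405 of 439 (92.3%) in heroin rats, 263 (59.9%) lower, beside 5 of 5. A name scarce in serum passes the filter through its brain libraries alone, so these counts do not single the family out. The lack of overlap of miR-29b-3p and miR-29c-5p does not either, since its share over all names was not counted. The median log2FC of all names tested was -1.45 and -1.57 against the PFC and -1.91 and -2.18 against the NAc (saline, then heroin), so miR-29b-3p and miR-29c-5p lay below the median name, miR-29a-3p above it, and miR-29c-3p on either side of it. Scaling by library size alone moved that median by 0.07, 0.59, 0.32 and 1.22 in the same order, and DESeq2 size factors by -0.80, -0.56, -0.63 and -0.07.

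**Figure D3:**
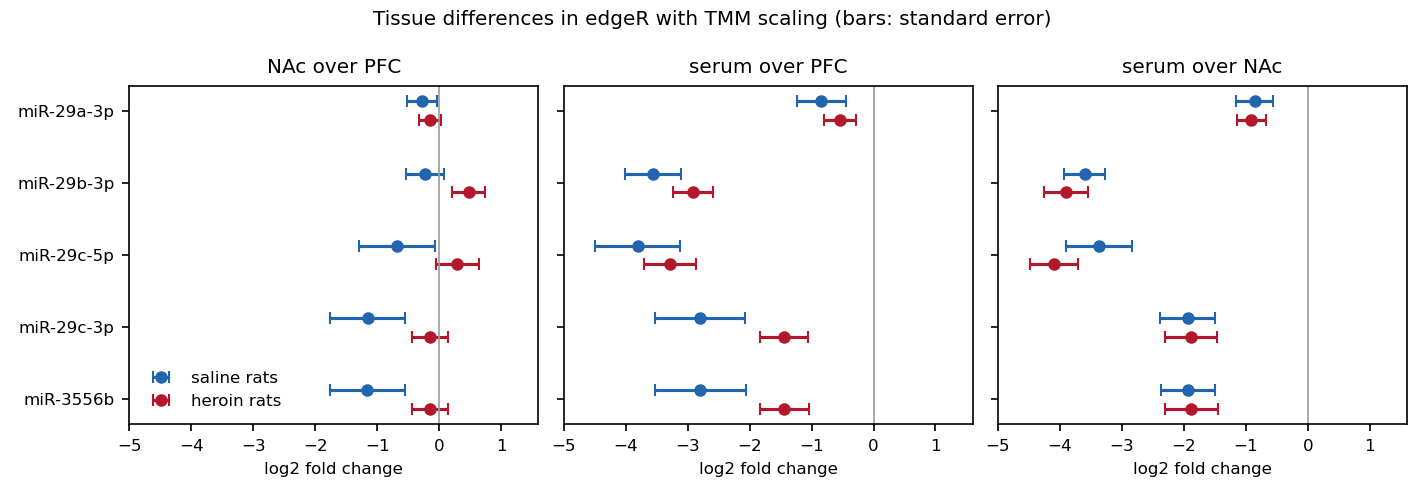
Log2 fold change between tissues in edgeR with TMM scaling for each listed name, in saline (blue) and heroin (red) rats, with bars for 1 standard error. miR-29b-3p and miR-29c-5p lie at -2.91 or lower in all serum comparisons, whereas miR-29a-3p lies between -0.91 and -0.55, values that change sign in heroin rats with library size as the only scale.

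Serum and brain were also unlike in most lists of cell type markers, but not in all. All listed markers were detected in every group. Summed over 5 neuron markers, the level was 246843 to 341085 CPM in the PFC, 182128 to 263311 CPM in the NAc and 11999 to 50822 CPM in serum. Summed over 3 red cell markers it was 27937 to 84344 CPM in serum and 70.2 to 702.9 CPM in the PFC, and miR-122-5p, the marker of liver, was at 1881 to 16670 CPM in serum and 0.662 to 86.9 CPM in the PFC. The astrocyte list held only miR-143-3p and miR-449a-5p, taken from rodent culture studies, and whether they mark astrocytes here was not tested. Serum and brain overlapped for that list. It summed to 2624 to 8334 CPM in serum, 3110 to 18714 CPM in the PFC and 3980 to 13185 CPM in the NAc. Serum and brain also overlapped for the endothelium markers, at 3045 to 6624, 4150 to 7857 and 3094 to 4938 CPM in the same order. The part of the marked cell types in the family's tissue differences was not tested.

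Ratios of 2 strands within a library need no scaling between libraries. They were taken as log2 of counts plus 0.5 and compared with an exact two-sided permutation test over 6 against 6 libraries, for which the smallest possible p is 0.00216, and adjusted over all 27 comparisons of 3 ratios. The ratio of miR-29b-3p to miR-29a-3p separated serum from brain. In saline rats its mean was -6.67 ± 0.48 in serum (SD, n = 6), -4.16 ± 0.45 in the PFC and -4.11 ± 0.35 in the NAc. In heroin rats it was -6.77 ± 0.49, -4.31 ± 0.27 and -3.81 ± 0.75. The highest serum library lay at -6.19 and the lowest brain library at -4.83, so no libraries overlapped. The differences of serum from PFC and NAc were -2.51 and -2.56 log2 units in saline rats and -2.46 and -2.96 in heroin rats, each with the smallest exact p (0.00216, adjusted p = 0.0146). This held with each library left out in turn, over which the adjusted p stayed at or under 0.0146.

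The other ratios were less separated. The ratio of miR-29a-3p to miR-29c-3p was 8.01 ± 0.87 in serum and 6.93 ± 0.41 in the PFC of heroin rats, a difference of 1.08 (exact permutation test, adjusted p = 0.0468) and the ranges overlapped. It did not pass with a pseudocount of 1 (0.83, adjusted p = 0.0584), nor with any 1 of the 6 PFC libraries or serum library 2 or 6 left out, where it ran from 0.75 to 1.15. The ratio of the 5p to the 3p strand of miR-29c was -0.20 ± 1.29 in serum, 1.34 ± 0.91 in the PFC and 1.83 ± 1.10 in the NAc of heroin rats. The difference of -2.03 from the NAc had an exact permutation adjusted p of 0.0835. It passed with a pseudocount of 1 (-2.08, exact permutation adjusted p = 0.0468) and without serum library 2 or NAc library 3, and without serum library 2 the difference from the PFC passed as well. In saline rats the differences were -0.96 from the PFC and -1.03 from the NAc, with exact permutation adjusted p of 0.364 and 0.326. No ratio differed between heroin and saline in any tissue, with adjusted p from 0.422 to 0.821 over the 9 comparisons.

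**Figure D4:**
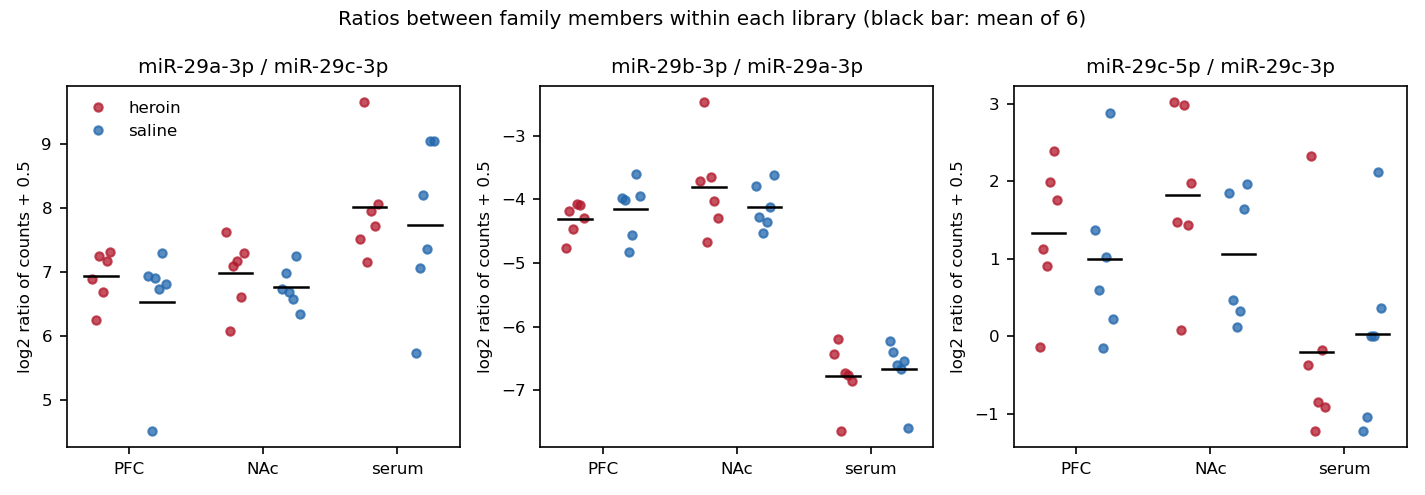
Log2 ratios of counts (plus 0.5) between family members in each of the 36 libraries, by tissue and treatment, with a black bar at the mean of 6. In the middle panel all 12 serum libraries lie at or below -6.19 and all 24 brain libraries at or above -4.83, while in the outer panels the tissues overlap.

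Within a brain region the strands did not all move together from library to library. In 12 correlations over the 12 libraries of a region, with 100000 permutations for each p, both treatments pooled and levels as log2(CPM + 1), miR-29a-3p and miR-29c-3p were the pair with the highest r in each region. In the PFC r was 0.918 (permutation p adjusted over 12 = 0.000720) and Spearman's rho 0.846 (0.00684), and r was 0.882 without the 2 libraries farthest from the median, 8 and 4. In the NAc r was 0.827 (0.00504), rho 0.839 (0.00684), and r without libraries 4 and 12 was 0.702. The hairpins of these 2 strands lie in different clusters, and their mature forms differ by 1 base. Outside the family, miR-186-5p had a higher r with miR-29a-3p, at 0.950 in the PFC and 0.967 in the NAc. Levels in a library share its total and scaling, so these p-values do not mark a relation as particular to the family.

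The 2 strands of the miR-29c hairpin showed no such relation. In the PFC r was 0.691 (permutation p adjusted over 12 = 0.111) but rho was -0.04 (0.905), and r was -0.26 without libraries 8 and 11. In the NAc r was 0.048 (permutation p adjusted over 12 = 0.883) and rho -0.049 (0.905). For miR-29a-3p and miR-29b-3p, neighbours on chromosome 4, r was 0.825 in the PFC (permutation p adjusted over 12 = 0.00876) with a rho of 0.622 (0.103), and 0.431 without libraries 8 and 4, so the relation rested on those libraries. In the NAc their r was 0.278 (0.417) and rho 0.448 (0.297). For miR-29b-3p and miR-29c-3p, which share the chromosome 13 cluster through Mir29b2, r was 0.860 in the PFC (permutation p adjusted over 12 = 0.0154) with a rho of 0.503 (0.237), and 0.311 without libraries 8 and 12. In the NAc their r was 0.649 (0.0453) and rho 0.706 (0.0520), and r without libraries 2 and 12 was 0.635.

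Some annotated names had a like profile over the 24 brain libraries. Among 219 names with a mean of at least 50 CPM there, and with no p attached because these are descriptions over libraries that share totals and scaling, the closest to miR-29a-3p were miR-186-5p (r = 0.925) and miR-9a-3p (0.861), then miR-3588 (0.856), miR-125b-5p (0.851) and miR-3556a (0.846), with an r of 0.751 to 0.904 for these 5 without PFC library 8. For miR-29b-3p they were its repeat miR-3587 (r = 1.000), miR-136-5p (0.801), miR-138-5p (0.751), miR-30c-2-3p (0.725) and miR-326-3p (0.70). Without PFC library 8 the r of these 4 names other than the repeat was 0.684, 0.593, 0.535 and 0.50. For miR-29c-3p they were miR-138-5p (0.908), miR-384-3p (0.886), miR-326-3p (0.852), miR-127-5p (0.847) and miR-124-3p (0.841), the neuron-enriched miRNA. Without PFC library 8 the r of miR-29c-3p fell to 0.733 with miR-138-5p, to 0.667 with miR-326-3p, to 0.534 with miR-127-5p and to 0.749 with miR-124-3p, and was 0.871 with miR-384-3p.

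PFC saline library 8 was high for the whole family, and unevenly so. Its miR-29a-3p level of 7812 CPM compared with 1714 to 4007 CPM in the other 11 PFC libraries, and its miR-29b-3p level of 486.0 CPM with 101.6 to 258.6 CPM. miR-29c-3p stood at 341.2 CPM against 10.9 to 40.65 CPM, 14.9 times the median of the others, and miR-29c-5p at 518.0 CPM against 25.8 to 88.6 CPM, 9.72 times. The 5p strand of miR-29a was at 43.6 CPM against 1.54 to 7.83 CPM, 16.4 times. Both strands of a hairpin and both clusters were thus raised, the miR-29a and miR-29b 3p strands by 2.77 and 3.74 times only. Outside the family the names most raised there were miR-331-3p at 226.9 CPM (35.1 times the median of the others), miR-326-3p at 829.9 CPM (21.7), miR-138-5p at 2144 CPM (15.1), miR-106b-5p at 114.2 CPM (13.5) and miR-664-2-5p at 458.0 CPM (10.8). Of the 9 marker lists, 2 were above the range of the other PFC libraries in it: the 4 microglia and leukocyte markers summed to 482.1 CPM against 93.3 to 228.4 CPM, and the 3 striated muscle markers to 311.8 CPM against 60.6 to 144.4 CPM. Their part in the raised levels was not tested.

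**Figure D5:**
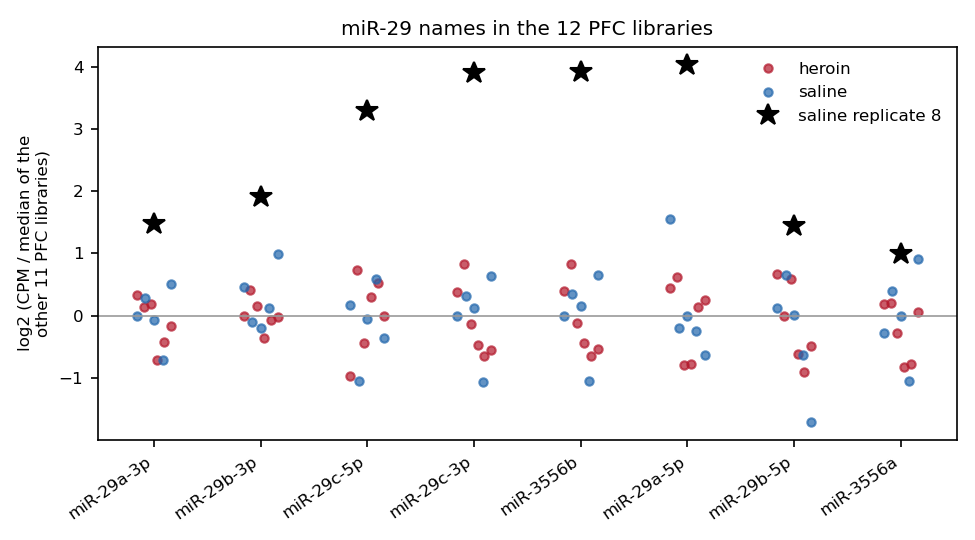
Log2 of the level of each miR-29 name in the 12 PFC libraries over the median of the 11 libraries other than saline library 8, which is drawn as a black star. The star lies above all other libraries for each of the 8 names drawn, near 4 for miR-29c-3p, miR-3556b and miR-29a-5p and near 1.5 for miR-29a-3p.

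Of the remaining 4 rows of the family, the 5p strands were low. miR-29b-1-5p, from the other arm of Mir29b1, had 1 count in all, in PFC saline library 9. miR-29b-5p, from Mir29b2, averaged 9.07 CPM ± 5.35 in the PFC (SD, n = 12) and 8.74 CPM ± 4.01 in the NAc, and had 7 counts over the 12 serum libraries, 8 of which had none. It passed the low-count filter through its brain libraries alone, and the 3 counts that a library with none allows reached up to 18.5 CPM with heroin, so no fold is given. miR-29a-5p had a median of 2.80 CPM in the PFC, 4.23 CPM in the NAc and 1.504 CPM in serum, where 6 of 12 libraries had no count. It did not pass the low-count filter within serum. Against the NAc of heroin rats it was called lower in serum, at -1.16 ± 0.49 (edgeR adjusted p = 0.0336), on 17 serum counts. In the 3 of 6 serum libraries at 0, the 3 counts that none allows came to 9.46 to 18.5 CPM. The NAc heroin levels were 2.44 to 5.60 CPM, so the call does not show a lower level. In saline rats it was not called, at -0.91 ± 0.61 (edgeR adjusted p = 0.168). For miR-29a-5p the log2FC of heroin in the PFC was -1.45 ± 0.66 (edgeR adjusted p = 0.995). The saline mean there was 10.1 CPM with library 8 and 3.36 CPM without it, against 2.82 CPM with heroin.

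miR-3556a, opposite miR-29a-3p, ranked 130th in the PFC, 131st in the NAc and 89th in serum, above miR-29b-3p in each. Its level was 384.8 CPM ± 160.4 with saline and 715.7 CPM ± 293.7 with heroin there (SD, n = 6), against 315.9 CPM ± 150.7 and 223.7 CPM ± 67.4 in the PFC. It was higher in serum than in the PFC of heroin rats by 1.06 ± 0.34 (edgeR adjusted p = 0.00599), with no overlap of libraries, for which no share over all names was counted. The other 3 serum comparisons did not pass, at 0.28 ± 0.42 against the PFC in saline rats (edgeR adjusted p = 0.534), and 0.21 ± 0.32 (0.542) and 0.52 ± 0.30 (0.110) against the NAc in saline and heroin rats. In CPM, however, serum and NAc did not overlap in heroin rats either, with 326.3 CPM lowest in serum and 309.2 CPM highest in the NAc. Library size alone moved the median of all names by 1.22 there, and its effect on miR-3556a is not given. For heroin against saline in serum its log2FC was 0.74 ± 0.36 (edgeR adjusted p = 0.744), with 5 of 6 heroin libraries above the saline median. The difference of that heroin effect between serum and NAc was 1.09 ± 0.44 (edgeR adjusted p = 0.459).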

How the data were processed

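The table holds counts of reads for each mature miRNA, used as the authors deposited them, with 1 column per library and none pooled. TPM values were deposited by the authors beside the counts, per the file headers, and each of 30996 equalled the count over the library total times 1e+06 (largest relative difference 4.9e-15). Per the submitters' processing notes, Bowtie and the build rn6 were used in some step. Which annotation release, mismatch limit, strand rule and rule for reads with several matches applied is not given in the sources used here. Every column matched 1 label, and all 36 libraries were used. No 2 libraries of a group agreed within sampling noise (smallest chi-square per degree of freedom 30.6 over 90 pairs).

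For each comparison the quasi-likelihood test of edgeR 4.0.16 (R 4.3.3) was run on the libraries compared, over the whole table, with TMM factors. Low counts were removed by filterByExpr (minimum count 10), and p-values were adjusted by Benjamini-Hochberg with a threshold of 0.05. "Called" means an adjusted p under 0.05. Standard errors are the size of the log2 fold change over the square root of F. Alternatives were DESeq2 size factors or library size in edgeR, no filter, DESeq2 1.42.0, limma 3.58.1 on log2(TPM + 1), repeated names counted once, each library left out, named libraries left out together, and the replicate number as a block. Strand ratios and correlations used scipy 1.17.1. The edgeR code was tested on simulated counts. The floor of 3 counts reflects counting error alone. Reads are not independent molecules, so the true floor may be higher.

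Sequences and positions came from the RefSeq miRNA table of GRCr8, matched by name, with all 9 family names found. The positions are those of that table, not of rn6, and no position was used with the counts. Besides the listed names, the text names the other miR-29 and miR-3556 rows, the 5 names most alike to each 3p strand, up to 5 names most raised in a library that stands apart, and miR-3587, which was added after its values were seen. Members, marker lists, tests and alternatives were chosen with earlier results of these data known. Same-numbered libraries were checked for shared deviations from their group means over 203 names, and the numbers were not taken as pairs.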

Additional observations from a re-analysis of the deposited data

Results flagged for a closer look

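Of 47 sets of 6 libraries, each a family name in 1 group, 10 had a highest library whose gap to the next one exceeded Dixon's 95% critical value. Chance flags about 1 in 20 such sets if levels are normally distributed. That was not tested for these CPM values, which were not log-transformed, and the names share libraries and reads. The share of flagged sets over all names was not counted, so the 10 do not set the family apart from other names.

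PFC saline library 8 accounted for 5 of the 10, with miR-29a-3p at 7812 CPM, miR-29c-3p at 341.2 CPM, miR-3556b at 340.2 CPM, miR-29c-5p at 518.0 CPM and miR-29a-5p at 43.6 CPM. NAc saline library 12 accounted for 3, with miR-29b-3p at 308.9 CPM, miR-29c-5p at 181.2 CPM and miR-29a-5p at 8.68 CPM. Outside the family the names most raised in that library were miR-342-3p at 905.7 CPM (4.28 times the median of the other NAc libraries), miR-653-5p at 107.9 CPM (3.11), miR-495 at 1217 CPM (2.91), and miR-129-1-3p and its repeat miR-129-2-3p at 1147 CPM each (2.59).

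NAc heroin library 2 had miR-29b-3p at 423.6 CPM, 2.65 times the median of the other NAc libraries, while its miR-29a-3p was at 0.891 times that median. The names most raised beside miR-3587 were miR-200b-3p at 115.0 CPM (9.61 times), miR-136-5p at 265.3 CPM (2.66), miR-326-3p at 102.0 CPM (2.62) and miR-132-5p at 1074 CPM (2.55). NAc heroin library 3 had miR-29b-5p at 15.9 CPM, with 7.39 CPM in the next library of its group.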

How the results depend on the processing

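The serum calls of miR-29b-3p and miR-29c-5p kept their direction and threshold under every scaling, filter, tool, block and library left out. Without PFC saline libraries 8 and 12 together, heroin log2FC in the PFC was 0.019 for miR-29c-3p, 0.073 for miR-29c-5p and 0.017 for miR-3556b. With limma on log2(TPM + 1) the heroin log2FC of miR-29b-3p in the NAc was -0.064, that of miR-29a-3p in heroin rats was 0.13 for serum against PFC and 0.29 for serum against NAc, and its NAc minus PFC interaction was -0.017. With library size alone, miR-29a-3p in heroin rats was at 0.14 and 0.29 for the same serum comparisons. The cause of these reversals was not tested. Listed names called in heroin rats fell to 2 with limma for serum against PFC, and to 2 with limma and 2 with library size for serum against NAc.

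Over all names, heroin against saline in serum gave 2 calls with no filter, 4 with DESeq2 and 2 without serum saline libraries 10, 11 and 12 together. NAc against PFC gave 58 calls with DESeq2 in saline rats, and in heroin rats 34 with DESeq2, 14 with limma and 53 with the replicate block. The interactions gave 2 (serum and PFC) and 1 (serum and NAc) with DESeq2.

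With 1 library left out, calls over all names ran from 0 to 2 for heroin in serum (2 without saline 8 or 9), from 25 to 51 for NAc against PFC in saline rats (51 without PFC 12), and from 6 to 37 in heroin rats (37 without NAc 2, 24 without PFC 5). They ran from 0 to 2 and from 0 to 3 for the interactions of serum with PFC and NAc. Heroin log2FC ran from -0.99 to 0.19 for miR-29c-5p in the PFC and from -0.16 to 0.38 for miR-29b-3p in the NAc. NAc against PFC in saline rats ran from -1.36 to 0.10 for miR-29c-3p, from -1.26 to 0.23 for miR-29c-5p and from -1.37 to 0.093 for miR-3556b. The NAc minus PFC interaction ran from -0.060 to 0.22 for miR-29a-3p, from -0.25 to 1.24 for miR-29c-3p and from -0.24 to 1.25 for miR-3556b. The serum interactions ran from -0.11 to 0.91 for miR-29c-5p (PFC), from -0.0052 to 0.65 for miR-29b-3p (NAc) and from -0.80 to 0.016 for miR-29c-5p (NAc).

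The ratio of miR-29a-3p to miR-29c-3p ran from -0.0089 to 0.55 for heroin in the PFC and from -0.13 to 0.53 in serum, from -0.086 to 0.23 and -0.18 to 0.38 for NAc against PFC (heroin, then saline rats), from 0.75 to 1.25 and 0.80 to 1.602 for serum against PFC, and from 0.70 to 1.199 and 0.71 to 1.37 for serum against NAc. The ratio of miR-29b-3p to miR-29a-3p ran from -0.092 to 0.15 for NAc against PFC in saline rats and from -0.28 to 0.077 for heroin in serum. The 5p to 3p ratio of miR-29c ran from -0.16 to 0.45 for NAc against PFC in saline rats, from -0.74 to 0.18 for heroin in serum, and in heroin rats from -2.05 to -1.33 for serum against PFC and from -2.54 to -1.79 for serum against NAc. With a pseudocount of 1 it was -2.08 in the last (adjusted p = 0.0468), and the ratio of miR-29a-3p to miR-29c-3p was 0.83 for serum against PFC in heroin rats.

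Libraries with the same number deviated together with an r over 0.1 in 9 of 12 pairs for NAc and PFC, 7 for serum and PFC and 6 for serum and NAc, and 7, 5 and 4 correlated best with their own number. With the replicate block, the ratio of miR-29b-3p to miR-29a-3p kept its differences of -2.51, -2.56, -2.46 and -2.96, but the smallest sign-flip p of 0.03125 cannot pass once adjusted (0.141). The ratio of miR-29a-3p to miR-29c-3p kept 1.08 (adjusted p = 0.188). No call of a listed name changed with the block.

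Depth limits the serum values most: miR-29c-3p had 83 counts over 12 serum libraries and miR-29c-5p 65.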
